A study of Mus musculus with 6 samples.

Results

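The imprinted genes of the mouse were examined in Sertoli cells with and without PA1, a subunit of a histone H3 lysine 4 methyltransferase complex. The members were 34 genes known to be imprinted in the mouse, taken by gene symbol and grouped by the parental allele that is usually expressed and by their chromosomal cluster. Of the 34 members, 31 were listed in a table of 28262 genes, and H19, Magel2 and Dio3 were not analysed here. RNA was sequenced from Sertoli cells purified from the testes of 20-day-old C57BL/6 mice and cultured without treatment. The control group, Pa1F/F (labelled PA1flox/flox), carried a floxed Pa1 gene and comprised 3 libraries. The knockout group, Amh-pa1-/- (labelled PA1-/-), comprised 3 libraries from mice in which Cre under the Amh promoter, which is active in Sertoli cells, deleted the floxed gene. The reads of Pa1 itself (Pagr1a) were not analysed here, and each library was taken at its labelled genotype. The study's methods call the samples biological replicates. The labels do not say whether the libraries of a genotype came from separate animals, and p-values measure the spread between these libraries, part of which may be technical.

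Genomic imprinting marks one parental copy of a gene by DNA methylation laid down in the egg or the sperm, so that only the maternal or only the paternal copy is transcribed. Imprinted genes lie in clusters in which an imprinting control region, and often a long noncoding RNA, sets the state of the neighbouring genes. Many of them act on fetal growth, on the placenta and on metabolism, and several are turned down in most tissues after birth. The allele that is expressed can depend on the tissue: Ube3a and Gnas, for example, are imprinted in a few tissues and are read from both alleles in many others. The libraries counted the reads of both alleles together, so the level of a gene was measured and its parental origin was not.

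Each library held between 13203757 and 16231443 counts. Within Pa1F/F, replicate 2 stood apart from replicates 1 and 3: the SD of the log2 difference between libraries over genes was 0.267 between replicates 1 and 3, but 0.469 and 0.474 for the pairs with replicate 2. Within Amh-pa1-/-, replicate 3 stood apart in the same way, with 0.285 between replicates 1 and 2, and 0.562 and 0.566 for the pairs with replicate 3. Each of 12 Sertoli cell markers was detected. Of the 11 tested, 3 fell (Clu, Gata4 and Inha) and 8 did not pass, among them Sox9 (log2 -0.12) and Wt1 (log2 0.13). The summed level of the markers was 16142 to 16429 CPM (counts scaled to the size of the library) in Pa1F/F and 9610.6 to 12417 CPM in Amh-pa1-/-. This sum was mostly Clu, at a mean of 193300 normalized counts in Pa1F/F and 119800 in Amh-pa1-/-. Markers of other cells moved with the genotype. The summed level of 7 Leydig cell markers was 836 to 931 CPM in Pa1F/F and 177 to 332 CPM in Amh-pa1-/-, and 3 of the 4 tested fell past both thresholds. Cyp11a1, the first enzyme of steroid synthesis, was at 4250.0, 4210.0 and 4695 normalized counts in Pa1F/F and 352, 364 and 377 in Amh-pa1-/-, whereas the defining Leydig genes Insl3 and Cyp17a1 were at 0 to 3 counts in every library. Of 7 macrophage markers, 6 were tested and 5 fell, with log2 fold changes from -3.38 (Adgre1) to -1.65 (Cd68). Their sum, 90.9 to 104 CPM against 69.6 to 91.6 CPM, was mostly Mrc1, which did not pass (log2 0.17). Of 6 endothelial markers, 4 were tested, of which 1 rose and 2 fell. Their sum, 116 to 122 CPM against 63.8 to 101 CPM, was mostly Cdh5, which fell (log2 -0.87). Kdr, which did not pass, was at 80.1, 74.4 and 485 normalized counts in Amh-pa1-/-, high in replicate 3 alone. For 7 peritubular myoid markers the sum was 222 to 284 CPM against 827 to 1268 CPM, a rise carried by Acta2 (smooth muscle actin), the 1 gene of the 6 tested that passed. The muscle genes Myh11, Des and Actg2 were high in Amh-pa1-/- replicate 3 alone: Myh11, for example, was at 649, 481 and 580.0 normalized counts in Pa1F/F and 216, 165 and 1605 in Amh-pa1-/-. For 4 mesothelial markers, 3 of which rose, the sum was 4.47 to 7.38 CPM against 26.0 to 34.4 CPM. The sums of 7 stromal markers (1164 to 1510 CPM against 800 to 1513 CPM) and of the 12 listed germ cell markers (6.83 to 8.69 CPM against 4.37 to 10.6 CPM) overlapped between the genotypes, although 1 of 6 tested stromal markers (Pdgfra) and 2 of 4 tested germ cell markers (Ddx4 and Gfra1) fell. Adgre1, Ptprc, Ddx4, Krt19 (mesothelial) and Vwf (the endothelial gene that rose) reached the filter on low counts only in the genotype in which they were high, so their calls are descriptions. The part of these markers and of the libraries that stood apart in the results on imprinted genes was not tested, beyond the values given without each library.

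Imprinted genes changed in both directions in Amh-pa1-/- Sertoli cells. Dlk1, Rian, Peg3, Peg13, Ndn and Sgce rose, and Mest, Zrsr1, Peg10 and Impact fell. These were 10 of the 23 members with enough counts to be tested, or 43.5%, at an adjusted p below 0.05 (quasi-likelihood fit of edgeR, Benjamini-Hochberg), against 35.3% of all 14919 tested genes. The 6 that rose and the 4 that fell stood beside 18.2% and 17.1% of all tested genes. Among these, 4 also changed by at least 1 on the log2 scale in either direction, so that 4 of the 23 passed both thresholds (17.4%), against 12.0% of all genes: Dlk1, Rian and Peg3 were higher (5.44% of all genes were) and Mest was lower (6.56% of all genes were). The 3 values of the genotypes did not overlap for 12 of the 23 members (52.2%), and for 52.4% of all tested genes. Over the tested members the log2 fold changes had a median of 0.29, against 0.00 over all genes, and the median of its size without the sign was 0.55 against 0.30. With the 2 close libraries of each genotype summed into 1, Dlk1, Peg3, Peg13 and Ndn passed, whereas Rian (1.40), Sgce (0.59), Mest (-1.05), Zrsr1 (-0.69), Peg10 (-0.58) and Impact (-0.54 on the log2 scale) kept their direction and did not pass. Over all genes, 708 rose and 674 fell in that fit, against 2718 and 2548 in the main fit. In RNA from a cell population, fewer cells of a type and less RNA per cell cannot be told apart. 2 tested members stood near the filter of 0.677 CPM in at least 3 libraries: Dlk1 reached it in 0 Pa1F/F libraries and 3 Amh-pa1-/- libraries, so it could be tested only because it was high in the knockout, and Mirg reached it in 1 and 2 libraries.

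**Figure D1:**
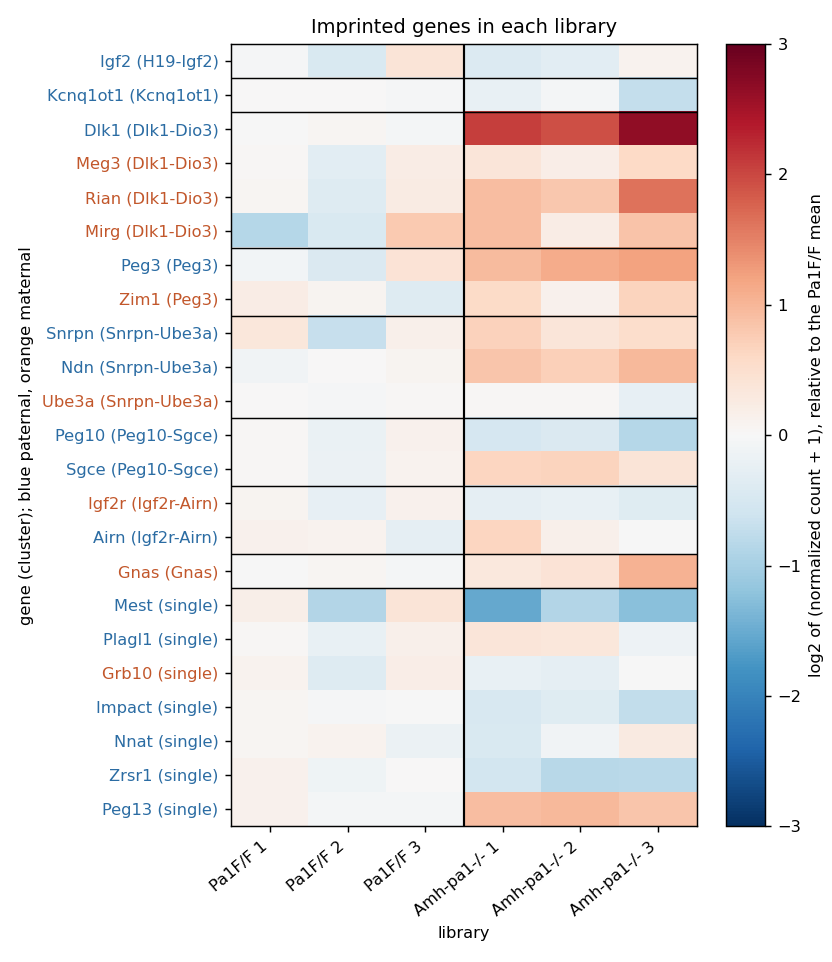
Level of each of the 23 tested imprinted genes in each library (columns, with Pa1F/F to the left of the line and Amh-pa1-/- to the right), as log2 of the normalized count plus 1 relative to the Pa1F/F mean of that gene. Rows carry the cluster, in blue for usually paternal and orange for usually maternal expression. Dlk1 and Rian are red in the 3 Amh-pa1-/- libraries, and Mest is lower in Pa1F/F replicate 2 than in replicates 1 and 3.

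Among 13 members usually expressed from the maternal allele, 12 were listed, 8 were tested and 1 passed, Rian (12.5%, beside 35.3% of all tested genes). The 8 include Ube3a and Gnas, which did not pass and which are maternal in a few tissues only. Among 21 usually expressed from the paternal allele, 19 were listed, 15 were tested and 9 passed (60.0%), 5 of them higher and 4 lower, beside 18.2% and 17.1% of all tested genes. These groups are small, and the difference between their counts was not tested. By product, 2 of 6 tested long noncoding RNAs passed (33.3%), both higher (Rian and Peg13), and 8 of 17 tested protein-coding members passed (47.1%), with 4 higher and 4 lower. Paternally expressed members that passed thus moved in both directions.

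**Figure D2:**
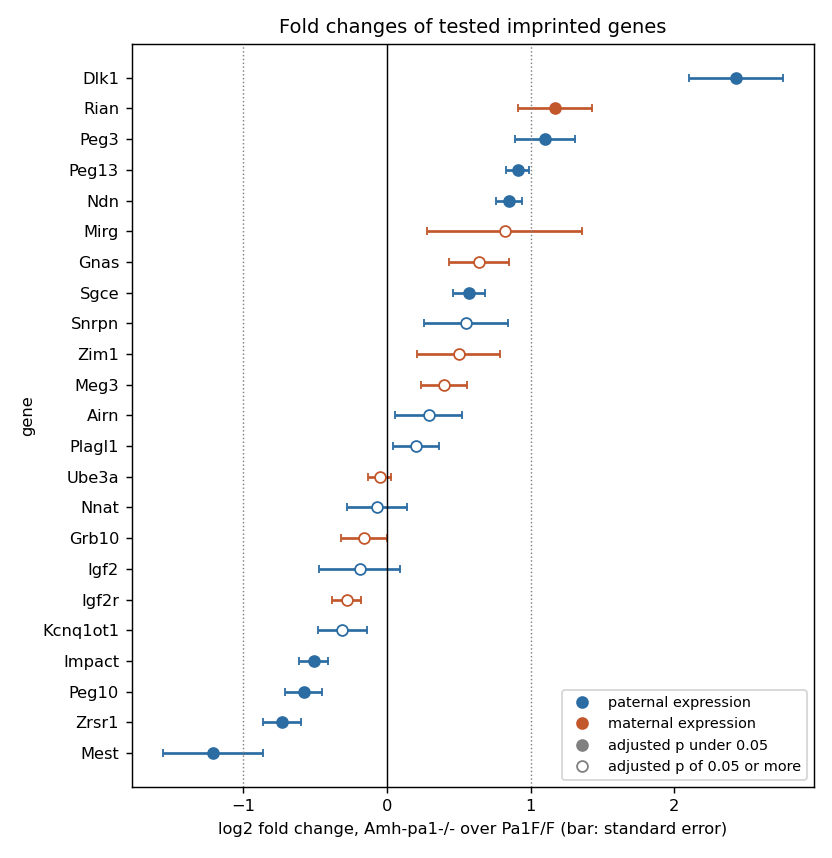
Log2 fold change of the tested imprinted genes, Amh-pa1-/- over Pa1F/F, with its standard error, ordered by size. The values run from -1.21 for Mest to 2.43 for Dlk1, and 10 of the 23 pass an adjusted p of 0.05.

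The Dlk1-Dio3 cluster on chromosome 12 joins paternally expressed protein genes to a chain of maternally expressed noncoding RNAs. Dlk1 (ENSMUSG00000040856, chr12:109452823-109463336 in GRCm38) encodes a membrane protein related to the Notch ligands that holds precursor cells, fat cell precursors among them, from differentiating. It had 6, 6 and 5 counts in Pa1F/F and 27, 21 and 40 counts in Amh-pa1-/-. The groups lay well apart, at a level that was low in both, with normalized counts of 5.50 ± 0.286 and 30.0 ± 8.81 (SD, n = 3 each). The log2 fold change was 2.43 with a standard error of 0.33, a 5.37-fold higher level. Since Dlk1 entered the test only through the libraries in which it was high, its adjusted p of 0.00222 (edgeR's quasi-likelihood test) is a description, and it was not tested under a filter of 10 counts in every library. Per kilobase of exon, Dlk1 was at 0.0618 CPM in Pa1F/F and 0.338 CPM in Amh-pa1-/-.

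Rian (ENSMUSG00000097451, chr12:109603940-109661716) is a maternally expressed RNA of the cluster that hosts small nucleolar RNAs and microRNAs. Its normalized counts were 357, 262 and 408 in Pa1F/F and 654, 603 and 1059 in Amh-pa1-/-. The groups did not overlap, and Amh-pa1-/- replicate 3 was far above the other two. The means were 342 ± 73.9 and 772 ± 250 (SD, n = 3), and the log2 fold change of 1.17 with a standard error of 0.26 was a 2.26-fold rise (edgeR's adjusted p = 0.0127). It was 0.88 to 1.34 with any 1 library left out and passed the adjusted p in each of these 6 fits, but was below 1 on the log2 scale without Amh-pa1-/- replicate 3 (0.88). With the 2 close libraries of each genotype summed, it was 1.40 and did not pass (adjusted p = 0.0682). Meg3, the regulatory RNA that begins the maternal chain on the same strand, was at 573, 448 and 658 against 719.5, 646 and 842. The genotypes of Meg3 overlapped, and its log2 fold change of 0.40 did not pass (adjusted p = 0.0978). The ratio of Rian to Meg3 within a library, a pair chosen after the values were seen, was 0.623, 0.585 and 0.620 in Pa1F/F and 0.909, 0.934 and 1.26 in Amh-pa1-/-. Mirg, a microRNA host at the far end of the chain, had 3, 4 and 10 counts against 12, 6 and 11 and did not pass (0.82, adjusted p = 0.282). Rtl1, a retrotransposon-derived gene needed in the placenta, had 2, 0 and 0 counts against 2, 3 and 2 and was not tested.

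The mature microRNAs that lie within the span of Rian are shown because that transcript is the maternal RNA that rose, with the seed, bases 2 to 8, in capitals (RefSeq, GRCm38.p6). The 6 sequences have 6 different seeds. The libraries did not measure mature microRNAs.
mmu-miR-341-5p, chr12:109611521-109611541, + strand: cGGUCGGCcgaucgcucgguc
mmu-miR-341-3p, chr12:109611556-109611576, + strand: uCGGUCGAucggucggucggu
mmu-miR-1188-5p, chr12:109611841-109611861, + strand: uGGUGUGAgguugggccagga
mmu-miR-1188-3p, chr12:109611877-109611901, + strand: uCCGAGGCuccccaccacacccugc
mmu-miR-370-5p, chr12:109618270-109618289, + strand: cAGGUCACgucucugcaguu
mmu-miR-370-3p, chr12:109618305-109618326, + strand: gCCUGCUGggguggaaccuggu

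The Peg3 cluster on chromosome 7 holds Peg3, Zim1 and Usp29. Peg3 (ENSMUSG00000002265, chr7:6703892-6730431) encodes a large zinc finger protein known for its effect on growth and maternal behaviour. Its normalized counts were 277, 216 and 388 in Pa1F/F and 566, 636 and 680.4 in Amh-pa1-/-. Every Amh-pa1-/- library was above every Pa1F/F library, and the spread was wider in Pa1F/F. From 294 ± 87.3 to 627 ± 57.5 (SD, n = 3) the log2 fold change was 1.10 with a standard error of 0.21, or 2.14-fold (edgeR's adjusted p = 0.00758), and it passed the adjusted p in each of the 14 alternative fits. With any 1 library left out it was 0.92 to 1.34, and without Pa1F/F replicate 2 (0.92) it was below a log2 fold change of 1. Zim1, a maternally expressed zinc finger gene beside it, was at 18.1, 16.5 and 11.5 against 23.4, 16.9 and 25.1, with a log2 fold change of 0.50 (adjusted p = 0.220). The genotypes of Zim1 overlapped. Usp29, a deubiquitinase gene whose start lies opposite that of Peg3, had 0 counts in Pa1F/F, where the floor of 3 counts is 0.185 to 0.214 CPM, and 1, 0 and 2 counts in Amh-pa1-/-.

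The Snrpn-Ube3a cluster, the mouse counterpart of the Prader-Willi and Angelman region, held the largest paternal rise in absolute counts among the members that passed. Ndn (ENSMUSG00000033585, chr7:62346569-62350262), which encodes necdin, a MAGE family protein that restrains proliferation, was at 612, 666 and 695 normalized counts in Pa1F/F and 1165, 1083 and 1301 in Amh-pa1-/-. The groups did not overlap and the spread was small in both. The fold was 1.80 (log2 0.85, adjusted p = 0.000904) and the log2 value was 0.78 to 0.92 with any 1 library left out. Snrpn, a splicing protein gene whose first exons sit at the imprinting centre, was at 48.9, 23.2 and 43.0 against 62.5, 49.6 and 56.1. The 3 Amh-pa1-/- values were above the Pa1F/F values, but the log2 fold change of 0.55 did not pass (adjusted p = 0.191), and Snrpn shares its strand and span with another annotated gene, Gm38393. Ube3a, an E3 ubiquitin ligase read from the maternal allele in neurons, was at 1410.0, 1372 and 1440.0 against 1444, 1435 and 1187. Its groups overlapped and its log2 fold change was -0.05 (adjusted p = 0.653).

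The Peg10-Sgce cluster on chromosome 6 was the one pair of neighbours in which both members passed, in opposite directions. Peg10 (ENSMUSG00000092035, chr6:4747306-4760517) derives from a retrotransposon and is needed in the placenta, and Sgce (ENSMUSG00000004631, chr6:4674350-4747207) encodes epsilon-sarcoglycan, a membrane protein. Peg10 was at 7197, 6046 and 7678 normalized counts in Pa1F/F and 4946, 5149 and 3859 in Amh-pa1-/-, and the groups did not overlap. Its level was 0.667 of that in Pa1F/F (log2 -0.58, adjusted p = 0.0158). Without Pa1F/F replicate 1 or replicate 3 this call was lost, at log2 fold changes of -0.56 and -0.51 (adjusted p = 0.0616 and 0.0598). Sgce was at 646, 559 and 682 against 989, 993 and 819.7, again without overlap, a 1.48-fold rise (log2 0.57, adjusted p = 0.00823). Within each library, the ratio of Peg10 to Sgce counts was 11.1, 10.8 and 11.3 in Pa1F/F and 5.00, 5.19 and 4.71 in Amh-pa1-/-, which is a smaller spread than that of either gene alone. Because the genes moved in opposite directions without overlap, their ratio had to separate the genotypes fully. The difference was -1.16 on the log2 scale. Its exact permutation p of 0.1 is therefore a description. That is the smallest p that 3 libraries against 3 can give (0.14 after adjustment over 7 ratios). The same p was reached by the ratios of Rian to Meg3, Peg13 to Trappc9, Zrsr1 to Commd1 and Mest to Copg2. Peg10 alone held 37.2% to 38.3% of the counts of the members in Pa1F/F and 23.8% to 29.2% in Amh-pa1-/-.

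**Figure D3:**
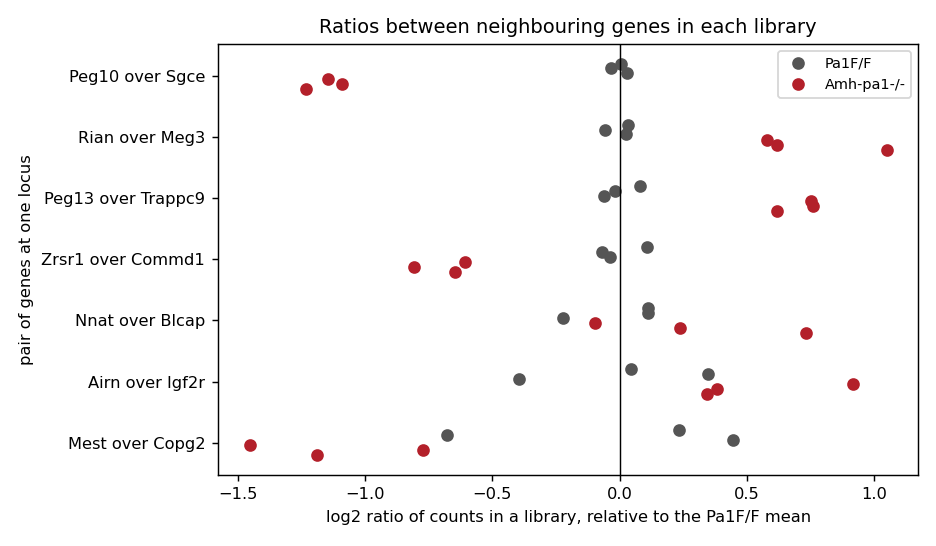
Log2 of the ratio of counts between neighbouring genes in each library, relative to the Pa1F/F mean of that ratio, with Pa1F/F in grey and Amh-pa1-/- in red. The 3 Amh-pa1-/- ratios of Peg10 over Sgce lie together, with a log2 difference of -1.16 between the group means, whereas those of Nnat over Blcap and Airn over Igf2r overlap the Pa1F/F values.

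Several members lie within other genes. Peg13 (ENSMUSG00000106847, chr15:72805600-72810324), a paternally expressed noncoding RNA inside an intron of Trappc9, was at 421, 373 and 371 normalized counts in Pa1F/F and 734, 762 and 693 in Amh-pa1-/-. The groups were far apart, and the 1.88-fold rise (log2 0.91, adjusted p = 0.000554) passed in each of the 14 alternatives. Trappc9, a gene of vesicle transport on the same strand, rose by 0.20 on the log2 scale (adjusted p = 0.0354), and the ratio of Peg13 to Trappc9 was 0.490 ± 0.0248 in Pa1F/F and 0.802 ± 0.0447 in Amh-pa1-/- (SD, n = 3). Zrsr1 (ENSMUSG00000044068, chr11:22973215-22976496), a retrocopy of an X-linked splicing factor gene set inside Commd1 on the opposite strand, was at 213, 178 and 197 against 134, 110.4 and 111. The groups did not overlap, and the level was 0.605 of that in Pa1F/F (log2 -0.73, adjusted p = 0.00674). Commd1, which acts in copper handling and protein turnover, had a log2 fold change of -0.04 (adjusted p = 0.858), and the ratio of Zrsr1 to Commd1 was 3.17 ± 0.208 and 1.97 ± 0.137. Because the strand setting of the counting is not given in the sources used here, reads of overlapping genes on opposite strands cannot be told apart. Peg13 shares its strand with Trappc9, so reads from that intron of Trappc9 cannot be told apart from those of Peg13 under any strand setting. Nnat, a small membrane protein gene inside Blcap, was at 102, 106 and 87.1 against 71.3, 91.3 and 118. Its groups overlapped (log2 -0.07, adjusted p = 0.826), whereas Blcap fell (log2 -0.38, adjusted p = 0.00673). Nap1l5, a nucleosome assembly protein gene inside Herc3, had 6 to 8 counts in every library and was not tested, and Herc3 had a log2 fold change of 0.57 (adjusted p = 0.0515).

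Mest and Impact are protein genes with no other member beside them. Mest (ENSMUSG00000051855, chr6:30723547-30748465), a gene of the alpha/beta hydrolase family that marks growing mesodermal tissue, was at 179, 85.2 and 208 normalized counts in Pa1F/F and 53.7, 85.6 and 65.1 in Amh-pa1-/-. Pa1F/F replicate 2 lay at the level of the knockout, so the groups overlapped. The means were 157 ± 64.1 and 68.2 ± 16.2 (SD, n = 3), and the log2 fold change was -1.21 with a standard error of 0.35, or 0.432 of the Pa1F/F level (edgeR's adjusted p = 0.0360). This call rested on few libraries: it passed in 1 of the 6 fits that left out a library, with a log2 range of -1.51 to -0.96 and an adjusted p as high as 0.116, and it did not pass by limma-voom (adjusted p = 0.0689). Mest also overlaps Copg2, a coat protein gene on the other strand, which was at 944 ± 60.3 and 946 ± 7.32 (adjusted p = 0.976). Their ratio, a pair also chosen after the values were seen, was 0.183, 0.0975 and 0.212 against 0.0569, 0.0911 and 0.0683. Impact (ENSMUSG00000024423, chr18:12972252-12992948), a regulator of translation under amino acid shortage, was at 1481, 1400.0 and 1416 in Pa1F/F against 1031, 1118 and 862. The groups did not overlap, and the level was 0.700 of that in Pa1F/F (log2 -0.51, adjusted p = 0.00786). The call of Impact held in 13 of 14 alternatives and was lost when the close libraries were summed, at a log2 fold change of -0.54 (adjusted p = 0.0756).

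**Figure D4:**
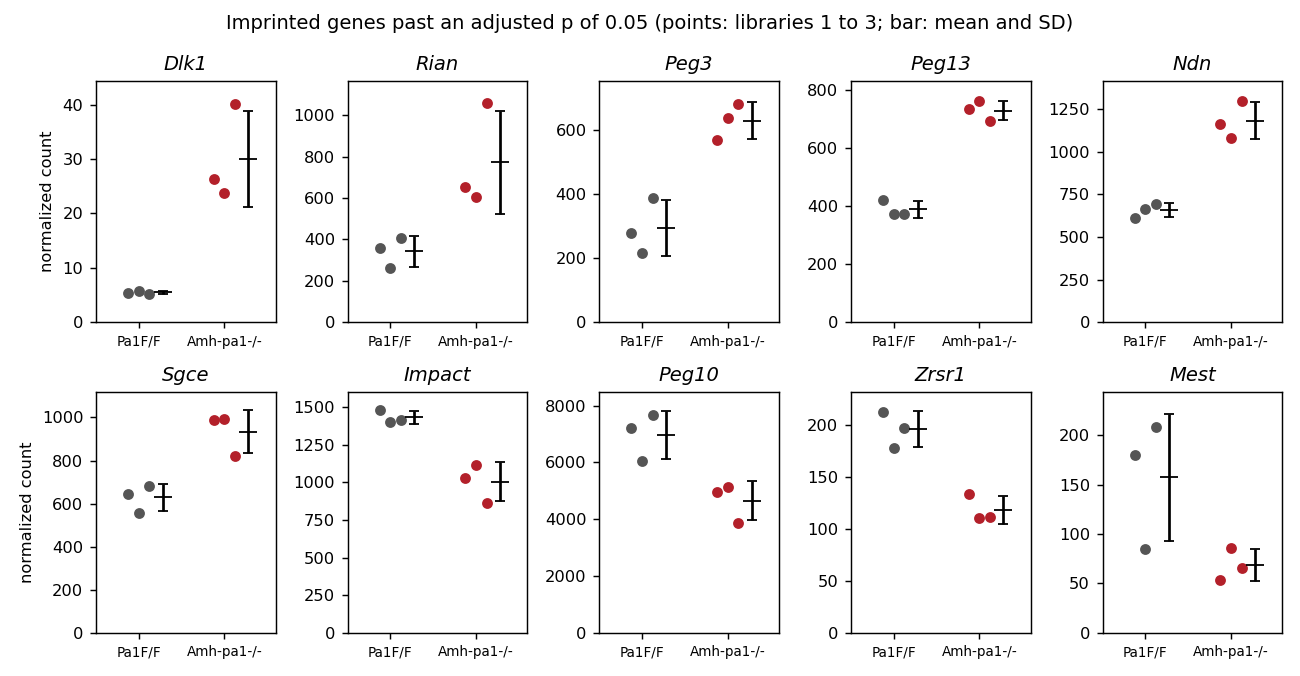
Normalized counts of the 10 imprinted genes past an adjusted p of 0.05, one panel for each gene, with the libraries as points and the mean and SD as bars, on axes that start at 0. In the panel of Mest the middle Pa1F/F point (85.2) lies at the height of the Amh-pa1-/- points, while the groups of the other 9 genes do not overlap.

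The mature microRNA pair within Mest, the member that fell most, is shown with the seed in capitals (RefSeq, GRCm38.p6).
mmu-miR-335-5p, chr6:30741314-30741336, + strand: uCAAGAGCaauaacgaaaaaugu
mmu-miR-335-3p, chr6:30741354-30741375, + strand: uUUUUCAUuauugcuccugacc

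Igf2, Igf2r, Airn, Grb10 and Plagl1 did not pass the test. Igf2, the fetal growth factor, was at 47.1, 34.8 and 62.9 against 36.1, 38.3 and 52.1, with full overlap (log2 -0.19, adjusted p = 0.627). Igf2r, the receptor that carries IGF2 to lysosomes for breakdown, was at 3672, 2914 and 3754 against 2864, 2960 and 2698. Pa1F/F replicate 2 was the value among the Amh-pa1-/- libraries, and the log2 fold change of -0.28 did not pass (adjusted p = 0.0751). Without that replicate it was -0.39 and passed (adjusted p = 0.00901). Airn, the noncoding RNA that silences Igf2r on the paternal allele and overlaps it, was at 64.3, 62.9 and 48.2 against 91.8, 65.4 and 58.1 (log2 0.29, adjusted p = 0.361). The ratio of Airn to Igf2r overlapped between the genotypes, at 0.0173 ± 0.00437 and 0.0252 ± 0.00591 (exact permutation p = 0.2, n = 3 each). Grb10, an adaptor that dampens insulin and growth factor receptor signalling, had a log2 fold change of -0.16 (adjusted p = 0.456). Plagl1, a zinc finger regulator of cell cycle arrest, had a log2 fold change of 0.20 (adjusted p = 0.379), which was 0.35 without Amh-pa1-/- replicate 3 (adjusted p = 0.0409).

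Gnas, which encodes the stimulatory G protein subunit that couples receptors such as that of FSH to cyclic AMP, was at 129.6, 137 and 127 in Pa1F/F and 165, 175 and 273 in Amh-pa1-/-. The groups did not overlap and Amh-pa1-/- replicate 3 was the highest, but the log2 fold change of 0.64 missed the threshold (adjusted p = 0.0515). It passed in 4 of the 14 alternatives: DESeq2's Wald test, the fit without a low-count filter, and the fits that left out replicate 1 or replicate 3 of Amh-pa1-/-. Nespas, the antisense RNA at the start of that locus, had 7, 6 and 3 counts against 1, 5 and 0 and was not tested.

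The 5 members of the Kcnq1ot1 cluster differed widely in level, and 4 of them had too few counts to be tested. Kcnq1ot1, which silences the neighbouring genes on the paternal allele, was at 279, 281 and 273 against 238, 266 and 168. Each Amh-pa1-/- value was below each Pa1F/F value, with Amh-pa1-/- replicate 2 the closest, and the log2 fold change of -0.31 did not pass (adjusted p = 0.196). Cdkn1c, a cell cycle inhibitor, had 5, 1 and 6 counts against 9, 2 and 20. Slc22a18, a transporter gene, had 10, 2 and 13 counts against 3, 1 and 6. Kcnq1, the host gene of Kcnq1ot1, had 0 counts in Pa1F/F and 2, 0 and 0 in Amh-pa1-/-, below the floor of 3 counts. Ascl2 and Phlda2, both known for their part in the placenta, had 0 to 2 counts and 0 to 1 counts, so that a difference was not detectable at this depth.

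Levels between genes were compared per kilobase of exon. In Pa1F/F, Peg10 was the highest of the detected members with an exon length, at 71.0 CPM per kilobase, then Igf2r at 25.0, Ndn at 11.8 and Impact at 11.2, the last pair differing by less than the spread of Ndn between libraries (6.46% of its mean). Peg13 was at 5.58, Grb10 at 4.75, Ube3a at 4.39 and Plagl1 at 4.35, and the spread between the libraries of Grb10 (20.2% of its mean) was wider than the gaps between these last 3. In Amh-pa1-/-, Peg10 was at 47.4, Ndn at 21.3, Igf2r at 20.6 and Peg13 at 10.5, so that Ndn stood beside Igf2r. The members together held 0.109% to 0.136% of the counts of a library.

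Promoters are shown for members past the test, since the methylation that keeps an imprint lies on CpG sites, with each CG in capitals (RefSeq, GRCm38.p6, 250 bases before to 50 bases after an annotated start, read 5′ to 3′ on the strand of the gene). Promoters were found for 26 of 34 members (39 promoters). Those not found were Nespas, H19, Peg10, Sgce, Impact, Peg13, Cdkn1c and Rtl1. The windows were chosen to show how far the CpG content differed among genes that moved: the promoter of Rian holds 0 CpG sites, that of Dlk1 9, Zrsr1 10, Ndn 11 and Peg3 13. Of the 3 annotated starts of Mest, a pair 3 bases apart have 17 each and the other has 8, beside a median of 7 over all 32851 promoters. The RefSeq starts of Ndn, Mest and Zrsr1 differ from the gene starts listed in the count table, so that the windows of Ndn and Mest lie inside their listed spans and that of Zrsr1 upstream of its own. DNA methylation was not measured.
Dlk1 promoter, chr12:109452573-109452872, + strand: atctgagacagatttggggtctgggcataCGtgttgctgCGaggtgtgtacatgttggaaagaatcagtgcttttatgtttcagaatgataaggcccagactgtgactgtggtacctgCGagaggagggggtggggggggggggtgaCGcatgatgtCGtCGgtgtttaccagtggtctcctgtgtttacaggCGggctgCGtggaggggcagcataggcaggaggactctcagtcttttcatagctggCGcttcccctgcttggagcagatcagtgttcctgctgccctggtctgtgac
Rian promoter, chr12:109603695-109603994, + strand: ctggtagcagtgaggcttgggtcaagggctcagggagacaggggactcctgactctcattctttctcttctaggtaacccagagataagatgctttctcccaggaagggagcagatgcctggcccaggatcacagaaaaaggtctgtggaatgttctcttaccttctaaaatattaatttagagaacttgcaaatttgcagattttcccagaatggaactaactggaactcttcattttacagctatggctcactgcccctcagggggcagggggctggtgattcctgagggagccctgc
Peg3 promoter, chr7:6730370-6730669, - strand: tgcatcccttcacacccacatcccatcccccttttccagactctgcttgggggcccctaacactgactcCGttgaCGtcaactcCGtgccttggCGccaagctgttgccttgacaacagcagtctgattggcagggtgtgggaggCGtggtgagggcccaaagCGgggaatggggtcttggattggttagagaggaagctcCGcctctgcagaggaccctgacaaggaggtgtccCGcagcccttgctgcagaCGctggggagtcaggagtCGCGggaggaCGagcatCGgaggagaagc
Ndn promoter, chr7:62348027-62348326, + strand: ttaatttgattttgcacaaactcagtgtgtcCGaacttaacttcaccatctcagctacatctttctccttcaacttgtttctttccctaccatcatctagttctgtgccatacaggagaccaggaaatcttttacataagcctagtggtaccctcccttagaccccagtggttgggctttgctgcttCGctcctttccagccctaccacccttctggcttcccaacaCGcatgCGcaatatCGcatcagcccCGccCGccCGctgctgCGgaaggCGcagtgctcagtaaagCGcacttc
Zrsr1 promoter, chr11:22971755-22972054, + strand: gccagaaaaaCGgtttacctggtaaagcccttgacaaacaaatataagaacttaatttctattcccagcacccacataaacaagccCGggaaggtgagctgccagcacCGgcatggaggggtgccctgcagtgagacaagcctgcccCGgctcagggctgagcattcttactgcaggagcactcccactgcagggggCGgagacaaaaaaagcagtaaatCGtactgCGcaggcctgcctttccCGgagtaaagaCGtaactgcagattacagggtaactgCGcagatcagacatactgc
Mest promoter, chr6:30737800-30738099, + strand: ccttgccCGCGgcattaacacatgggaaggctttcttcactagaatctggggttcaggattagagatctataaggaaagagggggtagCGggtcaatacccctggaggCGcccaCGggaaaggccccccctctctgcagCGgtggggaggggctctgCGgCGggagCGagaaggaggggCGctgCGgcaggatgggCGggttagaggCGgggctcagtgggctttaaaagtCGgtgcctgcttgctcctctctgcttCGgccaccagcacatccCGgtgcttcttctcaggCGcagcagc
The site bound by ZFP57, a zinc finger protein that keeps imprints methylated, was searched as TGCCGC on either strand. It occurred in 10 of 39 promoters of the members (25.6%), of 9 genes, and in 11.6% of all promoters, the overlapping pair of Mest windows counting as 2 of the 10. Of the 6 genes whose promoters are shown, Mest alone holds it. The site of AP-1, the dimer that contains JUN, was searched as TGANTCA on both strands and occurred in 1 member promoter, that of Magel2, and in 7.81% of all. The windows of Peg3 and Usp29 overlap on opposite strands. These matches describe letters and not bound sites. TGCCGC itself holds a CG, and the shares were not matched for CpG content.

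Of 46 imprinted genes outside the members, 34 were tested and 14 passed (41.2%, beside 35.3% of all tested genes), with 9 higher and 5 lower. Past both thresholds there were 3 (8.82%, beside 12.0% of all tested genes), each of them higher (5.44% of all tested genes were). Ppp1r9a, an actin-binding protein gene near Peg10, was at 3019, 2548 and 3029 against 5954, 6232 and 5273, a log2 fold change of 1.02 (adjusted p = 0.000609). Peg12, a gene near Ndn and Magel2, was at 46.2, 38.7 and 42.0 against 97.6, 81.1 and 93.2 (log2 1.10, adjusted p = 0.00323). Tspan32, a tetraspanin gene near Kcnq1, was at 13.6, 9.68 and 14.7 against 35.2, 40.6 and 23.1 (log2 1.37, adjusted p = 0.0152). In all 3 of these genes the groups did not overlap.

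Of 18 genes that lay down or keep imprints, 16 were tested and 7 passed (43.8%, beside 35.3% of all tested genes), with 4 higher and 3 lower. Past both thresholds there was 1 (6.25%, beside 12.0%). Uhrf1, which brings DNMT1 to newly copied DNA, was at 439.5, 576 and 468 against 1042, 1039 and 1351. The groups did not overlap, and Uhrf1 rose by 1.21 on the log2 scale (SE 0.15, edgeR's adjusted p = 0.00148). The other 6, named after their values were seen, moved by less than 1 on the log2 scale. Dnmt1, the maintenance methyltransferase, rose by 0.82 (adjusted p = 0.000722), Zfp57 by 0.70 (adjusted p = 0.00482) and Smchd1, a chromosomal protein of silenced loci, by 0.39 (adjusted p = 0.0196). Dnmt3a, which methylates DNA anew, fell by 0.34 (adjusted p = 0.0163), Arid4b by 0.27 (adjusted p = 0.022) and Ehmt2, a histone H3 lysine 9 methyltransferase, by 0.23 (adjusted p = 0.0274).

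**Figure D5:**
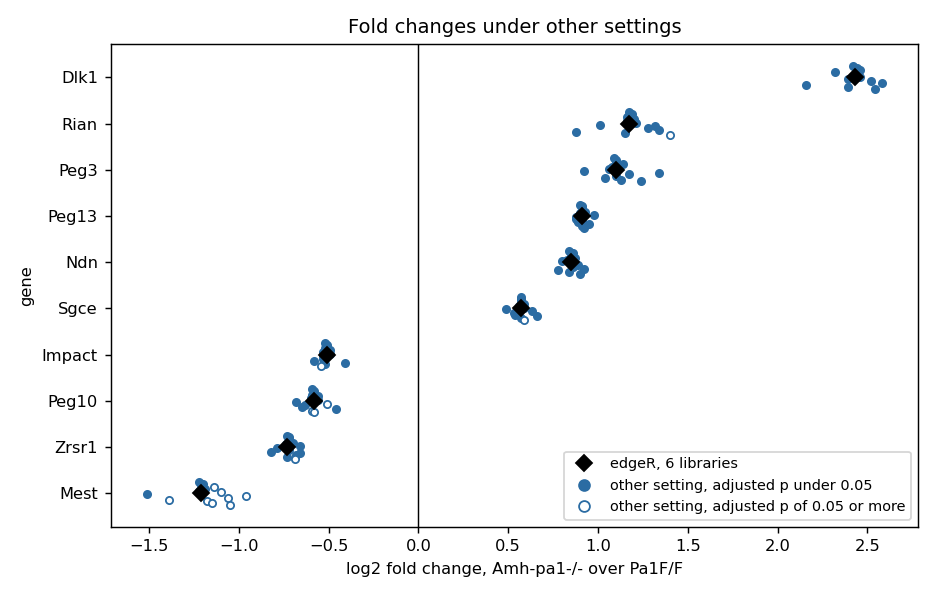
Log2 fold change of the 10 imprinted genes that passed, under the main and alternative fits. The sign is the same in every setting shown, with Mest, between -1.51 and -0.96 on leaving out a library, among the widest.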

How the data were processed

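RNA-seq counts per gene were deposited by the authors for 6 libraries, 3 of each genotype. Per the study's methods and the submitters' processing notes, reads were aligned with HISAT2 (2.1.0) to GRCm38 and counted with HTSeq (0.6.0). The strand setting is not given in the sources used here. The table also holds the authors' mean, fold change and p-value columns, which were not used, and 0 columns of other samples. Genes were filtered with edgeR's filterByExpr (minimum count 10, minimum total 15), scaled by TMM and fitted by the quasi-likelihood test of edgeR 4.0.16 (R 4.3.3), with Benjamini-Hochberg adjustment over the 14919 tested genes of 28262. Calls used an adjusted p below 0.05, alone or with a change of at least 1 on the log2 scale in either direction, and the floor was 3 counts (0.185 to 0.229 CPM), which covers counting error only. The fit was tested on simulated data: of 200 genes changed by a log2 fold change of 2 or -2 among 14882, 100% were recovered, and 1.48% of calls were unchanged genes. The changed genes were drawn from well-counted genes, with the same dispersion for every gene and no library set apart. The simulation thus does not cover smaller changes, low counts or libraries that stand apart, as some did here. DESeq2 1.42.0, limma-voom (limma 3.58.1), other scalings and filters, each library left out, the replicate block and the close libraries summed were the alternatives. Ratios of genes in a locus were compared by 2-sided exact permutation over libraries. Normalized counts are TMM-scaled. Exon lengths came from GENCODE M39 (lengths only) and sequences from RefSeq GRCm38.p6. Every member was named, with full statistics for those past both thresholds, and, by rule, each host gene and those of the further imprinted and the imprint maintenance genes that passed both thresholds. The other imprint maintenance genes past the adjusted p, Copg2 and single cell type markers were named after their values were seen. The members and lists were chosen with earlier results of these data known.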

Additional observations from a re-analysis of the deposited data

How the results depend on the processing

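Peg3, Peg13 and Ndn passed in each of the 14 alternatives. Dlk1 was left out of the test under a filter of 10 counts in every library. Of 320 member fold changes under the 14 alternatives 293 kept direction and call, 16 lost the call, 7 gained it and 4 changed sign. Members that fell numbered 2 to 5 on leaving out 1 library and 0 with the close libraries summed, against 4. Members that fell past both thresholds (Mest, 1) numbered 0 to 1 on leaving out 1 library, 0 by limma-voom and 0 with the close libraries summed. Over all genes, 2718 rose and 2548 fell, against 1761 to 3360 and 1689 to 3257 on leaving out 1 library and 708 and 674 with the close libraries summed. Past both thresholds, 812 rose and 979 fell, against 670 to 860 and 796 to 1216 on leaving out 1 library and 428 and 455 with the close libraries summed. The cause was not tested. The sign turned for Igf2 (-0.38 to 0.04 on leaving out 1 library, highest without Pa1F/F replicate 3), Ube3a (-0.10 to 0.03, highest without Amh-pa1-/- replicate 3) and Nnat (-0.27 to 0.10, highest without Amh-pa1-/- replicate 1, and 0.00 with the close libraries summed). Same-numbered libraries did not deviate together (correlations of 0.108, -0.164 and -0.179), so the numbers do not pair them. Across numbers, the libraries that stood apart, Pa1F/F replicate 2 and Amh-pa1-/- replicate 3, had the highest correlation (0.214). Pa1F/F replicates 1 and 3 correlated with Amh-pa1-/- replicates 1 and 2 at 0.108 to 0.15. No fit used this grouping as a block. With the block by replicate number 9 members passed, of which 8 were shared, Mest and Peg10 were lost and Meg3 was gained. In that fit 2 members fell, 0 of them past both thresholds, and over all genes 1917 rose and 1885 fell, against 2718 and 2548. Phlda2, Ascl2, Usp29 and Rtl1, at 0 to 3 counts in every library, were at or below the floor.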
